A study of Mus musculus with 6 samples.

Results

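RNA levels of 10 genes for secreted host defence proteins of the airway and alveolar lining were followed in lung. The genes are Bpifa1, Bpifb1, Reg3g, Lyz1, Lyz2, Lcn2, Ltf, Slpi, Wfdc2 and Pigr. They were taken by exact gene symbol from a table of 41388 genes, each symbol occurred once, and all 10 genes passed the filter on low counts. Lungs came from adult mice collected at Zeitgeber time 7 (ZT7, 7 h after lights on). The 3 WT mice were C57BL/6J controls from the same colony as the mutants. The 3 KO mice carried a targeted deletion of the 5′ part of Zpbp2 with part of its promoter, on a C57BL/6J background. The labels give no age, sex or treatment, and each of the 6 libraries is named for 1 mouse. The study asked how the Zpbp2 region and the circadian clock act on each other, and the comparison here is of these genes between KO and WT lungs at one time of day.

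The fluid that lines the airways carries proteins that kill microbes, starve them of iron, block proteases and bring antibody to the surface. BPI-fold proteins such as Bpifa1 bind lipids and bacterial lipopolysaccharide. Reg3g is a lectin that binds the peptidoglycan of Gram-positive bacteria, lysozymes cut peptidoglycan, Lcn2 captures bacterial siderophores and Ltf binds iron itself. Slpi and Wfdc2 carry whey acidic protein domains, and Pigr moves polymeric IgA across the epithelium. In lung these proteins come from secretory cells of the airway and its glands, from alveolar type 2 cells, from macrophages and, for Lcn2 and Ltf, also from neutrophils.

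A library held 59134950 to 71354388 counted reads. Zpbp2 itself, chiefly known from testis and low in lung, had 20, 15 and 7 reads in WT1 to WT3 and 1, 0 and 0 in KO1 to KO3. KO2 and KO3 were nearly the same library in their counts. In genes between 20 and 20000 counts their differences had 1.71 to 1.93 times the variance that counting alone gives (medians of 3 count classes), and those of WT1 and WT2 had 1.86 to 9.32 times. For the 10 genes, KO2 and KO3 differed by 0.27% to 6.34% of their mean. They were therefore counted as 1 sample (n = 3 WT, n = 2 KO), and the fit with 6 separate libraries is given beside the main one. A fit without KO1 has 1 KO sample, which is assumed to vary as the WT samples do, so an adjusted p given for it is no test between KO mice. WT3 and KO1 also stood apart from the other libraries. A list of 20 basal and squamous epithelium genes, led by Krt4 and Krt13, summed to 5004 CPM (counts per 1000000 reads of a TMM-scaled library) in WT3 and 9528 CPM in KO1 but to no more than 43.1 CPM in any other library. Between genotypes 0 of the 20 were called by edgeR, and 0 had an unadjusted p of 0.05 or less. Each result below is therefore also given within WT3 and KO1, and within WT1, WT2, KO2 and KO3. Lung identity was clear in every library, with 22656 to 33632 CPM for 10 alveolar type 2 genes, of which Sftpc was the most abundant. Xist was at most 0.37 CPM and the Y-linked Ddx3y at 55.5 to 80.4 CPM in every library, the RNA pattern of males. Of 10 adipocyte genes 2 were called, both lower, and the list summed to 998 to 1587 CPM in WT and 244 to 256 CPM in KO. Of 10 cardiomyocyte genes 0 were called by edgeR (7 lower at an unadjusted p under 0.05), with sums of 2620 to 7365 CPM and 1370 to 1597 CPM. The part of these cells in the values below was not tested. In whole lung, fewer cells of a type and less RNA per cell cannot be told apart.

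Lcn2 and Wfdc2 rose in KO, and these were the 2 genes called by the edgeR quasi-likelihood test at an adjusted p of at most 0.05. Over all genes 2.28% were called, 1.38% as higher in KO and 0.906% as lower, that is 257 and 169 genes. With library size as the only scaling that split was 117 higher and 189 lower, and Wfdc2 was no longer called. In Bpifa1, Bpifb1, Reg3g and Ltf every KO library lay below every WT library, and in Lyz1, Lyz2, Lcn2 and Wfdc2 every KO library lay above every WT library. Separation in these 8 genes has to be read against 40.8% of all tested genes, made up of 20.8% with KO below WT and 20% with KO above WT. Slpi and Pigr overlapped between genotypes. The unadjusted p was no higher than 0.05 in 6 of the 10 genes, against 27.3% of all tested genes. Counts at an unadjusted p given for the gene lists are also to be read against this share. With 6 separate libraries 5 of the 10 were called (Lyz1, Lyz2, Lcn2 and Wfdc2 higher, Ltf lower), against 18.9% of all genes (9.81% higher, 9.07% lower). The median log2 fold change was 0.09 over the 10 genes and 0.02 over all tested genes.

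**Figure D1:**
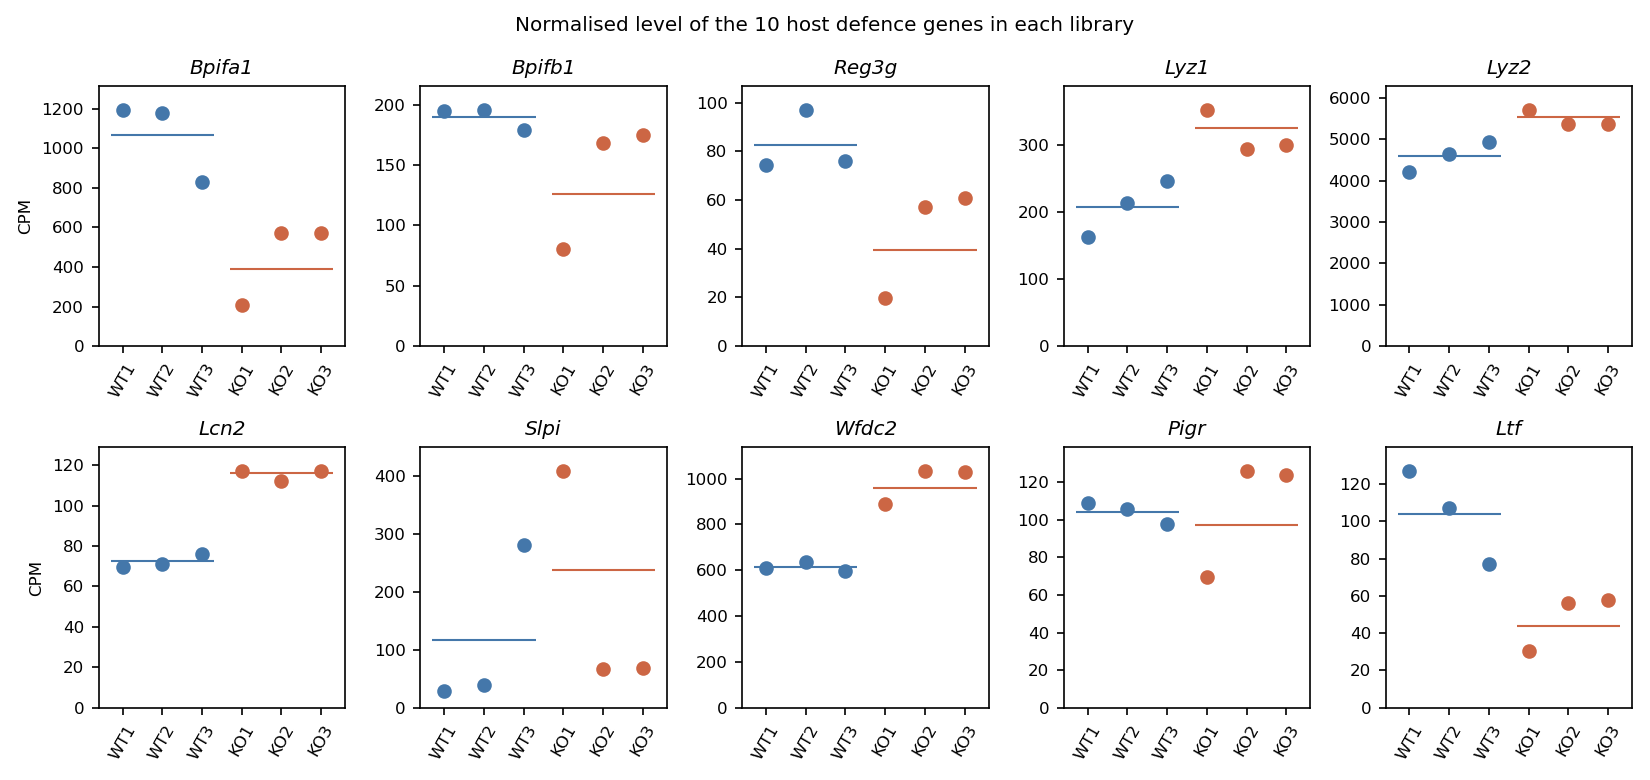
Normalised level (CPM, y axis from 0) of each of the 10 genes in the 3 WT libraries (blue) and the 3 KO libraries (orange). Lines mark the WT mean and the KO mean, the latter over KO1 and the mean of KO2 and KO3. All KO libraries lie below WT in 4 genes and above WT in 4 others, and in Slpi WT3 and KO1 are far above the other libraries.

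Bpifa1 and Bpifb1 encode BPI-fold proteins secreted by airway epithelium. Bpifa1 (ENSMUSG00000027483) lies on chromosome 2, 154142880 to 154149219 in GRCm38, plus strand, and Bpifb1 (ENSMUSG00000027485) follows 41.6 kb further on, from 154190818 to 154220369 on the same strand. Bpifa1 was at 1196, 1181 and 830 CPM in WT1 to WT3 and at 208, 570 and 572 CPM in KO1 to KO3. The groups did not overlap, and KO1 had the lowest level. WT averaged 1069 ± 207 CPM (SD, n = 3) and KO 389 ± 257 CPM (SD, n = 2). The log2 fold change was -1.45 (SE 0.47), which did not pass the edgeR test at an adjusted p of 0.133 (0.0705 with 6 separate libraries). Within the sets of libraries the log2 ratio was -2.00 for KO1 over WT3 and -1.06 for KO2 and KO3 over WT1 and WT2. With a term for the squamous epithelium level the edgeR adjusted p was 0.0257. Without KO1 alone the log2 fold change was -0.91.

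The difference in Bpifb1 was smaller by its estimate. It was at 195, 196 and 179 CPM in WT1 to WT3 and at 80.2, 168 and 175 CPM in KO1 to KO3, so that KO2 and KO3 were only just under WT3. The log2 fold change of -0.59 (SE 0.32) did not pass, with an edgeR adjusted p of 0.312, and without KO1 it was -0.15. Per base of exon, Bpifa1 RNA was 10.9 to 14.4 times as abundant as Bpifb1 RNA in WT and 6.06 to 7.96 times in KO.

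Reg3g (ENSMUSG00000030017) lies on chromosome 6, minus strand, 78466269 to 78468872. Its level was 74.5, 97.1 and 76.1 CPM in WT1 to WT3 and 19.9, 57.0 and 60.7 CPM in KO1 to KO3. Again KO1 was lowest and no KO library reached WT. The means were 82.6 ± 12.6 CPM (SD, n = 3) and 39.4 ± 27.5 CPM (SD, n = 2). The log2 fold change was -1.06 (SE 0.47, edgeR adjusted p 0.225), and without KO1 it was -0.49. Reg3g was the only member of its family with appreciable RNA. The other 6 Reg genes looked at (Reg1, Reg2, Reg3a, Reg3b, Reg3d, Reg4) summed to at most 0.919 CPM in a library, and none of these passed the filter on low counts.

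Promoter sequence is shown as a description and not as a test, because Bpifa1, Bpifb1, Reg3g and Ltf had similar patterns over the libraries. RefSeq promoter windows on GRCm38.p6, taken as the 250 bases before each start site that RefSeq gives, were found for all 10 genes (12 windows). These starts are not always the outer ends of the gene spans printed here, which are from GENCODE. The windows of Slpi, Lcn2 and Wfdc2 and the second one of Bpifb1 lie inside the GENCODE span, that of Slpi far inside it, and those of Lyz2 and Ltf overlap its edge. On both strands 6 motifs were searched. They were TATAAA (the TATA box), CACGTG (the E-box that CLOCK and BMAL1 bind), AGGTCA (the nuclear receptor half-site that Nr1d1 and ROR proteins use), GGAAGT (ETS core), CTCAAG (NKX2-1 core) and a kappaB-like site (GGG and TTCC with any 3 bases between). Of all 32851 promoter windows of this length 12.4%, 6.02%, 14.0%, 19.7%, 13.3% and 4.65% held them, in that order. Bpifa1 and Reg3g were the 2 genes of the 10 with TATAAA in the window, and both also held CTCAAG. The TATA box began 29 bases before the start in Bpifa1 and 27 bases before it in Reg3g. In the windows below capitals mark every motif match, 5′ to 3′ in the direction of the gene, at chr2:154142630-154142879 (plus strand) and chr6:78468875-78469124 (minus strand).
Bpifa1: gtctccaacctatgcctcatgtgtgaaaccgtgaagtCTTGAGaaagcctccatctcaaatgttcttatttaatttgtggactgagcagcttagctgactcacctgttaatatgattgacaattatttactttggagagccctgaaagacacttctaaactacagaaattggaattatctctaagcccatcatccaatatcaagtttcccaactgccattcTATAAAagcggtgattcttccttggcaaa
Reg3g: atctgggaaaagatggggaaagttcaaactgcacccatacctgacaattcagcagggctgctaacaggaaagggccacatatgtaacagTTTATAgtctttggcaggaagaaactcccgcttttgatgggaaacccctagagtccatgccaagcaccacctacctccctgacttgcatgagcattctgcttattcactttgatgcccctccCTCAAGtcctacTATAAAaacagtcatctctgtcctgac
AGGTCA was found in 4 of the 10 genes (Bpifb1, Lyz1, Wfdc2 and Ltf), and in Wfdc2 only in the window of the second of its start sites. The kappaB-like motif was found in Bpifb1 alone of the 10.

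The iron-withholding proteins had estimates of opposite sign. Lcn2 (ENSMUSG00000026822), the lipocalin that captures siderophores, lies on chromosome 2, minus strand, 32384633 to 32388252. It was at 69.6, 71 and 76.2 CPM in WT1 to WT3 and at 117, 112 and 117 CPM in KO1 to KO3. Both groups were tight and well apart, with means of 72.3 ± 3.46 CPM (SD, n = 3) and 116 ± 1.85 CPM (SD, n = 2). Lcn2 rose with a log2 fold change of 0.69 (SE 0.06), 1.61 times the WT level, at an edgeR adjusted p of 0.0446. The log2 ratio was 0.62 for KO1 over WT3 and 0.70 for KO2 and KO3 over WT1 and WT2. The adjusted p was close to the threshold. It went to 0.170, 0.189 and 0.123 without WT1, WT2 or WT3, to 0.0829 without KO1 and to 0.0846 with an offset for gene length, while the log2 fold change stayed between 0.58 and 0.72 over all alternatives. The Lcn2 window, shown because Lcn2 rose, was the only one of the 10 genes with none of the 6 motifs, at chr2:32387740-32387989 (minus strand).
Lcn2: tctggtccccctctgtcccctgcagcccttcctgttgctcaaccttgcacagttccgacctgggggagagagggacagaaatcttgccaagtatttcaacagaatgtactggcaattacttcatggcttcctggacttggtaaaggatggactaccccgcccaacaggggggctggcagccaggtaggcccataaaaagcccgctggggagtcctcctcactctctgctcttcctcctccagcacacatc
Ltf (ENSMUSG00000032496), lactoferrin, lies on chromosome 9, plus strand, 111019271 to 111042767. It was at 127, 107 and 77.0 CPM in WT1 to WT3 and at 30.6, 56.1 and 57.8 CPM in KO1 to KO3. All KO libraries were below WT, and within each genotype the library with squamous transcripts was lowest. The means were 104 ± 25.3 CPM (SD, n = 3) and 43.8 ± 18.7 CPM (SD, n = 2), with a log2 fold change of -1.24 (SE 0.35, edgeR adjusted p 0.104). With 6 separate libraries the adjusted p was 0.0430. Ltf was lower in KO within both sets of libraries, by log2 ratios of -1.33 and -1.04. The ratio of Lcn2 to Ltf RNA per base of exon was 0.72 to 1.3 in WT and 2.63 to 5.04 in KO.

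Neutrophils also make Lcn2 and Ltf, so their markers were set beside these genes. A list of 12 neutrophil genes summed to 104 to 150 CPM in WT and 98.1 to 124 CPM in KO, which overlap. Of 10 tested, 0 were called by edgeR (3 at an unadjusted p of at most 0.05, all lower in KO). The defining marker Ly6g was at most 0.142 CPM in every library. The granule genes Ngp and Camp, at only 3.47 and 1.26 CPM on average in WT, had log2 fold changes of -2.69 and -2.07. Their edgeR adjusted p values were 0.161 and 0.140. S100a9, the most abundant of the list, averaged 37.0 CPM in WT and 42.9 CPM in KO (log2 fold change 0.22, adjusted p 0.643). It alone of the 10 tested had a higher estimate. S100a8 was at -0.18 (adjusted p 0.682). The part of neutrophils in the Lcn2 and Ltf values was not tested.

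Lysozyme RNA was the most abundant of the set. Lyz1 (ENSMUSG00000069515, chromosome 10, 117287797 to 117292868) and Lyz2 (ENSMUSG00000069516, 117277331 to 117282321) lie side by side on the minus strand, 5.47 kb apart. Lyz2 is the lysozyme of macrophages and alveolar type 2 cells, and Lyz1 is best known from Paneth cells of the gut. Their transcripts share 195 words of 50 bases, which is 16.1% of the words of Lyz1 and 15.4% of those of Lyz2. A read that lies wholly within those stretches could come from either gene, and how such reads were counted was not tested. Lyz2 was at 4207, 4633 and 4934 CPM in WT1 to WT3 and at 5716, 5374 and 5359 CPM in KO1 to KO3. Lyz1 was at 163, 213 and 246 CPM in WT and at 353, 294 and 300 CPM in KO. For both genes every KO library was above every WT library, WT3 was the highest WT library and KO1 the highest of all.

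The log2 fold change was 0.65 (SE 0.18, edgeR adjusted p 0.105) for Lyz1 and 0.28 (SE 0.08, adjusted p 0.119) for Lyz2. Both were called with 6 separate libraries, at 0.0433 and 0.0483. With the offset for gene length the values were 0.48 and 0.10. On a per-length scale without the TMM factors (TPM) the groups overlapped, with Lyz2 at 9972 to 11537 in WT and 10317 to 11704 in KO, and Lyz1 at 402 to 599 and 591 to 752. Lyz1 made up 3.72% to 4.74% of the CPM of both lysozymes in WT and 5.19% to 5.81% in KO.

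The 2 lysozyme promoters are copies of each other over much of the window. Of the alignment positions, gaps included, 79.4% were identical, and both hold the ETS core in reverse (ACTTCC) from 100 to 95 bases before the start. AGGTCA was found in Lyz1 but not in Lyz2. They are shown in full because Lyz1 and Lyz2 had nearly the same pattern, at chr10:117292869-117293118 and chr10:117282273-117282522, both on the minus strand, with motif matches in capitals.
Lyz1: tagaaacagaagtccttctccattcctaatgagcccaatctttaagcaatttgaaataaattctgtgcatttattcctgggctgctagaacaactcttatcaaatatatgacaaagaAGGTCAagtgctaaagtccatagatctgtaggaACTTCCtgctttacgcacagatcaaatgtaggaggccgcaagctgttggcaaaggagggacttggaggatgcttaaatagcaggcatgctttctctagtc
Lyz2: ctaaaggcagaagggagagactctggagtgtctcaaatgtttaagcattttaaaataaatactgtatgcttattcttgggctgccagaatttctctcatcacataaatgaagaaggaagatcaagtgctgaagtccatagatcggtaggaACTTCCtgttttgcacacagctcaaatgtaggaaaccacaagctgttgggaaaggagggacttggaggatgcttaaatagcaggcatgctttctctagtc
Macrophage and alveolar type 2 genes were set beside the lysozymes. The 14 macrophage genes, of which Chil3 is the most abundant, summed to 469 to 641 CPM in WT and 467 to 474 CPM in KO. Of these Mrc1 was called, as lower (log2 fold change -0.56, edgeR adjusted p 0.0474). The 10 alveolar type 2 genes summed to 22656 to 23628 CPM in WT and 31757 to 33632 CPM in KO, and 3 were called, all higher (Sftpc, Sftpb and Sftpa1). A list of 12 Paneth cell and enterocyte genes reached at most 28.8 CPM in a library, of which Lgals4, an epithelial galectin, made up 16.8 to 20.6 CPM. Of 5 tested, edgeR called 0, and 2 had an unadjusted p of at most 0.05, both higher (Fabp2 and Vil1). Fabp2 was at 3.69 and 3.82 CPM in KO2 and KO3 and at most 0.317 CPM elsewhere. The Paneth cell genes Defa17, Defa21, Defa22, Defa24, Ang4 and Mptx2 were at or near 0, with at most 0.0685 CPM in any library. The part of these cell types in the lysozyme values was not tested.

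Slpi and Wfdc2 share the whey acidic protein fold and lie 173 kb apart on chromosome 2. Slpi (ENSMUSG00000017002, minus strand, 164354070 to 164389095) inhibits neutrophil elastase. Wfdc2 (ENSMUSG00000017723, plus strand, 164562413 to 164568510) is a small secreted protein of airway epithelium. Wfdc2 was at 610, 638 and 596 CPM in WT1 to WT3 and at 890, 1033 and 1029 CPM in KO1 to KO3. The groups were well apart, at 615 ± 21.3 CPM (SD, n = 3) and 961 ± 99.8 CPM (SD, n = 2). Wfdc2 rose with a log2 fold change of 0.65 (SE 0.09), 1.57 times the WT level, at an edgeR adjusted p of 0.0446, with log2 ratios of 0.58 for KO1 over WT3 and 0.72 in the other set. Leaving out WT1, WT2, WT3 or KO1 gave adjusted p values of 0.173, 0.189, 0.123 and 0.0783, library size alone gave 0.0519 and the offset for gene length gave 0.0963.

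Slpi was high in the 2 libraries with squamous epithelium transcripts. It was at 29.4, 38.9 and 282 CPM in WT1 to WT3 and at 409, 66.8 and 68.3 CPM in KO1 to KO3. WT3 was 8.28 times the mean of WT1 and WT2, and KO1 was 6.06 times the mean of KO2 and KO3. The genotypes overlapped, with a log2 fold change of 1.03 (SE 1.23, edgeR adjusted p 0.642), which turned to -0.79 without KO1 and was 2.81 without WT3. Within the sets of libraries Slpi was higher in KO, by log2 ratios of 0.53 for KO1 over WT3 and 0.98 for KO2 and KO3 over WT1 and WT2. These ratios have no test. The ratio of Wfdc2 to Slpi RNA per base of exon was 15.6 to 21.5 in WT1, WT2, KO2 and KO3 but 2.19 in WT3 and 2.25 in KO1. The part of squamous epithelium in the Slpi values was not tested.

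Other defence genes were high in the same 2 libraries. Defb4, a beta-defensin, was at 27.6 CPM in WT3 and 43.6 CPM in KO1 and at most 0.0142 CPM elsewhere. Wfdc5, of the same family as Slpi, was at 11.8 and 22.8 CPM there and at most 0.0546 CPM elsewhere. Duox1, an NADPH oxidase that supplies hydrogen peroxide to lactoperoxidase, was at 5.96 and 10.5 CPM there and at most 0.0997 CPM elsewhere. These 3 were singled out after their values were seen. The Slpi window, with an E-box from 146 to 141 bases before the start and the ETS core in reverse close to the start, is shown as 1 of 2 with an E-box (chr2:164356508-164356757, minus strand).
Slpi: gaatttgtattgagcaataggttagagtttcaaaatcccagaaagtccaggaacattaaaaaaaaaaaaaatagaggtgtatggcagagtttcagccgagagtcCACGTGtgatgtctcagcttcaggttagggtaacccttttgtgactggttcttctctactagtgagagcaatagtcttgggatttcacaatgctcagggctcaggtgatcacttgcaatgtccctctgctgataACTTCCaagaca
The other E-box, CACGTG, was in the Pigr window from 71 to 66 bases before the start.

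Pigr (ENSMUSG00000026417, chromosome 1, plus strand, 130826684 to 130852249), the receptor that carries IgA to the lumen, overlapped between genotypes. It was at 109, 106 and 97.6 CPM in WT1 to WT3 and at 69.8, 126 and 124 CPM in KO1 to KO3. KO1 was below all WT libraries, and KO2 and KO3 were above them. The log2 fold change was -0.09 (SE 0.25, edgeR adjusted p 0.851), and 0.26 without KO1. For the IgA heavy chain Igha the WT level was 34.4 ± 16.5 CPM (SD, n = 3) and the KO level 36.2 ± 12.9 CPM (SD, n = 2). For the J chain (Jchain) these were 35 ± 10.1 and 51.2 ± 28.6 CPM. Their adjusted p values were 0.939 and 0.455. Like Pigr, the J chain was lower in KO1 (30.9 CPM) than in KO2 and KO3 (73.0 and 69.8 CPM).

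**Figure D2:**
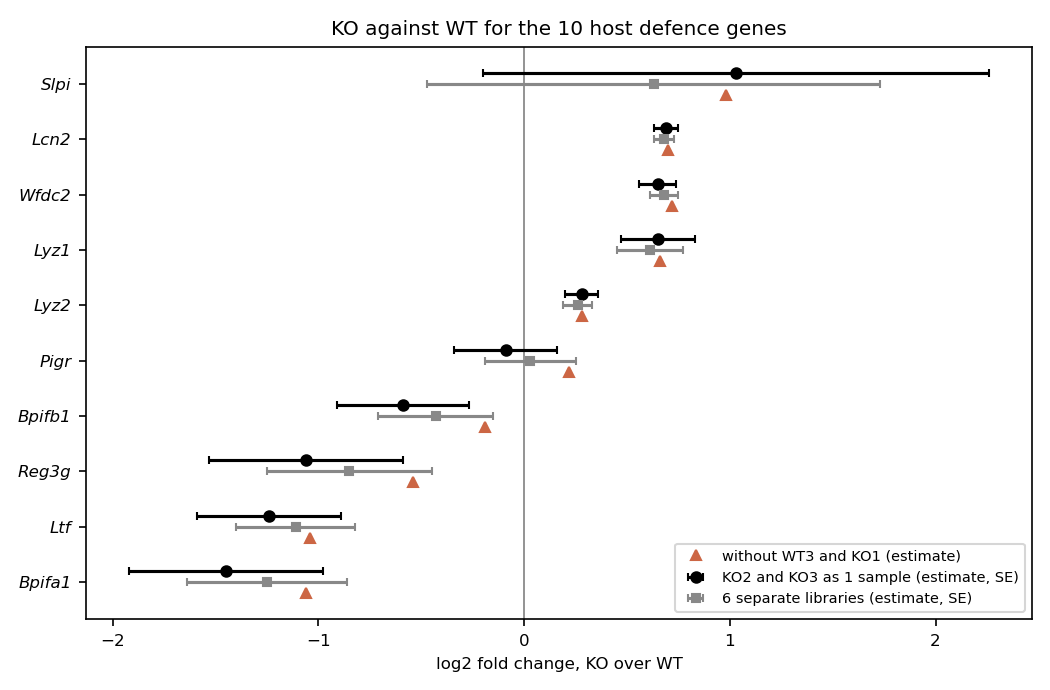
Log2 fold change of KO over WT (x axis) for the 10 genes. Circles are the edgeR estimates with KO2 and KO3 as 1 sample and squares those with 6 separate libraries, both with SE bars, and triangles leave out WT3 and KO1. Lcn2 and Wfdc2 have the narrowest bars relative to their distance from 0, and the bars of Slpi and Pigr span 0.

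The ratios within the 2 sets of libraries, split by the level of squamous transcripts, are a description. In 9 of the 10 genes KO1 over WT3 had the same direction as KO2 and KO3 over WT1 and WT2. Over all tested genes this was so for 71.8%. For the 8 genes whose genotypes do not overlap the same direction is fixed by that separation, so the agreement adds nothing to it, and of the other two Slpi had the same direction and Pigr did not. The 2 log2 ratios were -1.16 and -0.19 for Bpifb1, -1.93 and -0.54 for Reg3g, 0.52 and 0.66 for Lyz1 and 0.21 and 0.28 for Lyz2, the first for KO1 over WT3. For Pigr they were -0.48 and 0.22. The ratio was farther from 0 in KO1 over WT3 for Bpifa1, Bpifb1, Reg3g, Pigr and Ltf, and in the other set for Slpi, Wfdc2, Lcn2, Lyz1 and Lyz2. Each ratio rests on 1 or 2 libraries a side, so it has no test.

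**Figure D3:**
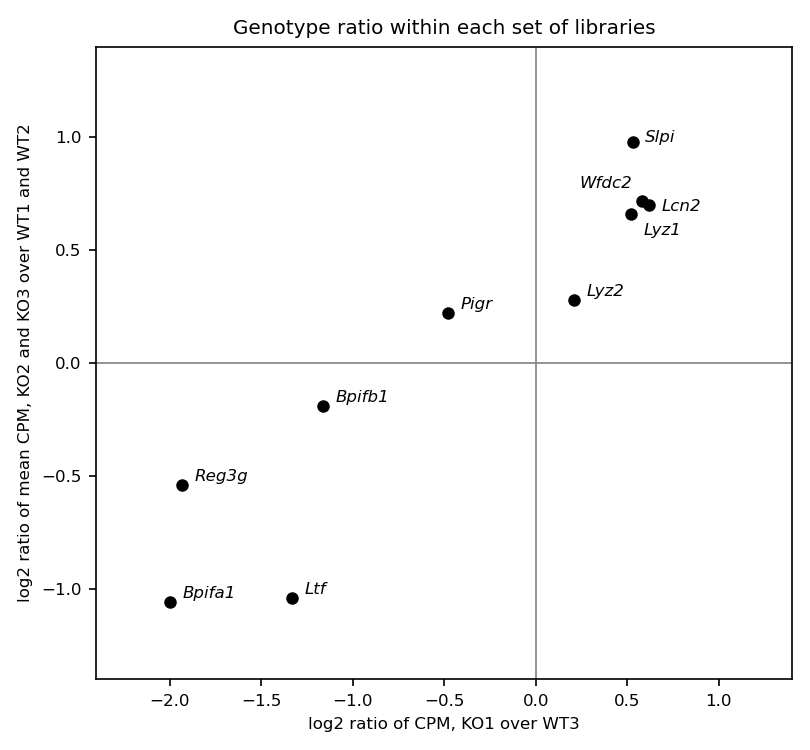
Log2 ratio of CPM for KO1 over WT3 (x axis) and for the mean of KO2 and KO3 over the mean of WT1 and WT2 (y axis), 1 point per gene. In the lower left lie 4 genes, from Bpifa1 at -2.00 and -1.06 to Bpifb1 at -1.16 and -0.19, 5 lie in the upper right, and Pigr lies alone at -0.48 and 0.22.

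Airway cell genes were looked at beside the 10 genes. A list of 10 club cell genes, led by Scgb1a1, summed to 32679 to 38035 CPM in WT and to 43611, 57705 and 57625 CPM in KO1 to KO3, above every WT library. By edgeR 0 of the 10 were called, 6 had an unadjusted p of at most 0.05, all higher, and all 10 estimates were higher in KO. For Scgb1a1 the estimate was 0.56 on the log2 scale (SE 0.14, adjusted p 0.0917). Ciliated cell genes, led by Sec14l3, summed to 2209 to 2569 CPM in WT and 2067 to 2914 CPM in KO, and 1 of 10 was called (Tppp3, higher). Goblet and serous gland genes, led by Scgb3a1, summed to 376 to 432 CPM in WT, and KO2 and KO3 were inside this range while KO1 had only 234 CPM. KO1, which had the lowest Bpifa1, Bpifb1, Reg3g, Ltf and Pigr, thus also had the lowest sums of the goblet and serous gland list and of the ciliated cell list (2067 CPM). Muc5b, a gel-forming mucin, was at 68.2 CPM in KO1 and at 132 to 178 CPM in the other libraries. Not all genes of the goblet and serous gland list were lowest there, since Spdef was at 2.82 CPM in KO1 and 1.97 to 2.3 CPM in WT, and Azgp1 was at 7.01 CPM in KO1 and 6.68 CPM in WT3. Of the defining genes of this list Dcpp1 and Dcpp2 had 0 CPM in every library. The ciliated cell genes were mixed in KO1. Sec14l3, at 1159 CPM there and 1398 to 1746 CPM elsewhere, was lowest in KO1, as were Ccdc39, Dnah5 and Dnah9. Tppp3 was at 549 CPM in KO1 and 409 to 424 CPM in WT. In Dynlrb2, Cfap126 and Tmem212 KO1 was also above every WT library. The part of secretory and ciliated cell number in the values of these genes was not tested. Erythroid genes, led by Hbb-bs, summed to 19101 CPM in KO2 and 19837 CPM in KO3 but to 2416 to 5542 CPM elsewhere. Of 10 tested liver plasma protein genes 0 were called by edgeR and 8 were higher in KO at an unadjusted p under 0.05, mainly through KO2 and KO3. Alb was at 24 and 25 CPM there and at 0.966 to 3.06 CPM in the other libraries, and Apoa1 was at 9.91 and 9.23 CPM against at most 0.904 CPM. The part of blood or liver transcripts in the values of the 10 genes was not tested.

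**Figure D4:**
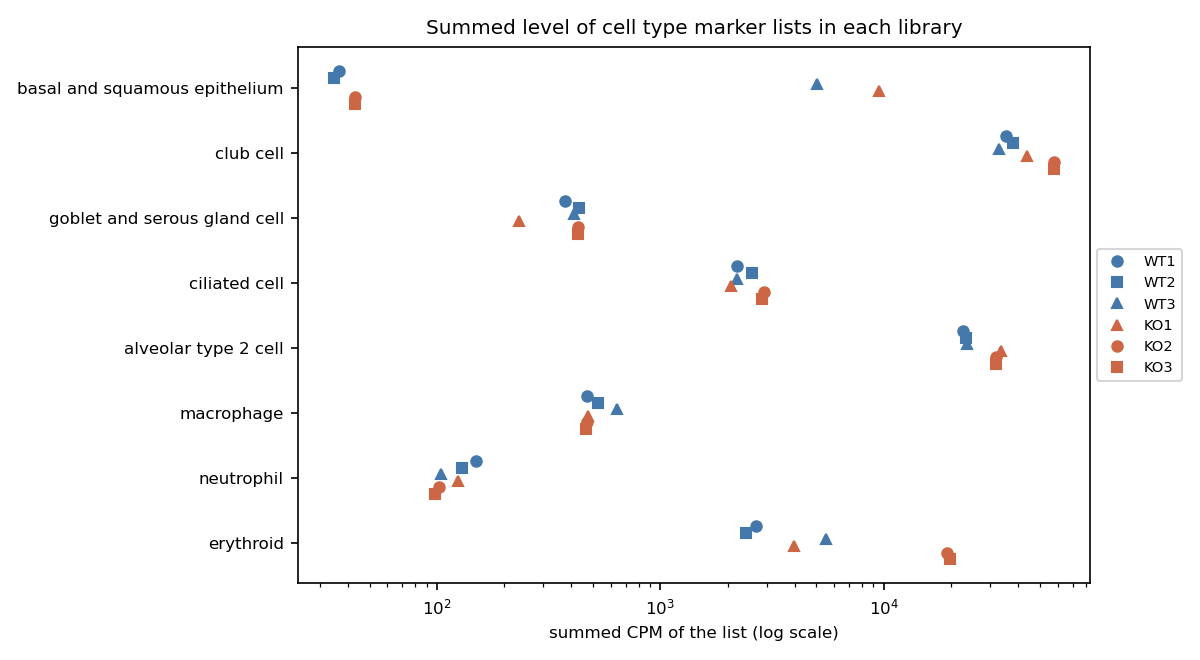
Summed CPM (x axis, log scale) of 8 cell type marker lists in each library, with WT in blue, KO in orange and WT3 and KO1 as triangles. Squamous epithelium genes separate WT3 and KO1 from the rest, club cell and alveolar type 2 genes are above WT in all KO libraries, and goblet and serous gland genes are lowest in KO1.

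Relative abundance was compared per exon length. In WT the order was Lyz2 at 10800 ± 787 TPM (transcripts per 1000000, SD, n = 3), Bpifa1 at 2145 ± 426, Wfdc2 at 1670 ± 61.2, Lyz1 at 507 ± 99.2, Slpi at 305 ± 374 and Bpifb1 at 163 ± 9.13 TPM. Below these came Reg3g at 121 ± 18.4, Ltf at 93.2 ± 23.3, Lcn2 at 85.3 ± 3.55 and Pigr at 80.2 ± 5 TPM. Lyz2 was between the third and sixth most abundant of 40340 genes with a length in every library. Bpifa1 and Wfdc2 overlapped in WT, as did Slpi with both of its neighbours in the order, Reg3g with Ltf, Ltf with Lcn2, and Lcn2 with Pigr. In KO the second place went to Wfdc2, at 2104 to 2298 TPM against 362 to 938 TPM for Bpifa1, without overlap. Lcn2, at 109 to 120 TPM, was above Ltf, at 23.9 to 42.5 TPM, in every KO library. The sum of all 10 genes was 6780 to 7394 CPM in WT and 7857 to 7894 CPM in KO, and Lyz2 alone was 62.0% to 72.4% of it. Without Lyz2 the other 9 genes summed to 2573, 2648 and 2460 CPM in WT1 to WT3 and to 2177, 2483 and 2504 CPM in KO1 to KO3, which overlap.

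The similarity of the patterns was described by Pearson correlation of log2(CPM + 0.5) over the 6 libraries, with no test, since KO2 and KO3 are almost 1 point and genotype and squamous transcripts are shared by all genes. Among Bpifa1, Bpifb1, Reg3g and Ltf r was 0.87 to 0.98, and among Lyz1, Lyz2, Lcn2 and Wfdc2 it was 0.78 to 1.0. Between these groups r was -0.96 to -0.38. Pigr went with the former (0.51 to 0.83). Of 15151 other genes with a mean of at least 1 CPM, the gene most like Lyz1 was Lyz2, and the reverse, with r = 0.999. Bpifa1 was most like Samhd1 (0.998), Bpifb1 like Sspo (0.994), Reg3g like Cxcl9 (1.0), Ltf like Gm5431 (0.998), Lcn2 like Psmd9 (1.0), Wfdc2 like 2210011C24Rik (0.999), Slpi like Stk40 (0.999) and Pigr like Ly6i (0.995).

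Other genes of the same families and of the signalling around them were counted from 8 lists of 119 genes. Of 83 tested, 3 were called by edgeR (3.61%), 2 higher and 1 lower, against 2.28% of all genes (1.38% higher, 0.906% lower). The estimates were higher for 51 and lower for 32, with a median log2 fold change of 0.16. Among other antimicrobial secretions 2 of 20 were called, both collectins of alveolar type 2 cells that bind microbial sugars. Sftpd went from 643 to 974 CPM on average (log2 fold change 0.60, SE 0.07) and Sftpa1 from 2822 to 3792 CPM (0.43, SE 0.06), both with an adjusted p of 0.0446. Among transferrins and lipocalins 1 of 8 was called, Ptgds, a lipocalin-type prostaglandin D synthase, at 1.01 CPM in WT and 0.375 CPM in KO (log2 fold change -1.43, SE 0.21, adjusted p 0.0480). Trf, transferrin, was the most abundant of that list, at 76.4 and 90.1 CPM (adjusted p 0.169).

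In the remaining lists edgeR called 0 genes. Of 12 whey acidic protein genes 1 had an unadjusted p of at most 0.05 (higher), and Wfdc1, the most abundant, had an adjusted p of 0.279. Of 4 BPI-fold genes 1 did (higher), which was the lipopolysaccharide binding protein Lbp, at 76.6 CPM in WT and 90.3 CPM in KO (adjusted p 0.113). Of 7 partners of these proteins 2 did (both lower), led by Lrp1 (adjusted p 0.119), and of 2 lysozyme-like genes 0 did. Of 30 receptors, signalling proteins and transcription factors upstream of these genes 8 did as higher and 2 as lower, against 27.3% of all tested genes in either direction. Stat3, the most abundant, was at 261 and 251 CPM (adjusted p 0.669). With 6 separate libraries edgeR called 7 of this list as higher and 1 as lower, against 9.81% and 9.07% of all genes. Among the higher ones was Cebpb (adjusted p 0.0154, log2 fold change 0.87 and adjusted p 0.0679 in the main comparison), a factor that binds the promoters of acute phase and defence genes. Another was the lung lineage factor Nkx2-1 (0.0116, against 0.0586).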

How the data were processed

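Lung RNA of 6 mice (3 WT, 3 KO, ZT7) was sequenced. The deposited values are raw counts of reads per gene, not normalized. The authors trimmed and filtered reads, aligned them to GRCm38 and counted reads per gene, and the submitters' processing notes name Trimmomatic 0.36, STAR 2.5.3a, Picard 2.9.0 and HTSeq 0.6.0. The annotation release, read length and strand setting are not given in the sources used here. All 6 sample columns were used.

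The tests used edgeR 4.0.16 under R 4.3.3 (filterByExpr, TMM, glmQLFit and glmQLFTest, two-sided) over the whole table, with Benjamini-Hochberg adjustment over 18660 tested genes and a threshold of 0.05. Counts of KO2 and KO3 were summed, and the mean of their CPM is 1 value in each mean ± SD. SE values are the log2 fold change divided by the root of its F value. DESeq2 1.42.0 was an alternative. P-values of the main comparison measure the spread between these mice. Fits that enter KO2 and KO3 as separate libraries treat them as independent, although their counts are nearly the same. The p-values and calls of those fits, with or without a replicate block, therefore do not measure the spread between mice. The pipeline was tested on simulated data with independent libraries and the same spread between samples for every gene. No simulated library stood apart as WT3 and KO1 do here, so that test does not cover this feature of the data. Exon lengths and positions came from GENCODE M21 (GRCm38), which holds 97.5% of the genes, and promoters from RefSeq. Of 256 list genes 254 were in the table, 7 of them matched by identifier. The 10 genes, the lists and the alternatives were chosen with earlier results of these data known. Named besides the 10 genes were called list genes other than the adipocyte ones, the most abundant gene of most lists and the genes with the most similar pattern. Chosen after their values were seen were Ly6g, Ngp, Camp, S100a8, Muc5b, Spdef, Azgp1, Dcpp1, Dcpp2, the Paneth cell genes, Fabp2, Vil1, Igha, Jchain and Krt13. So were Alb, Apoa1, Cebpb, Nkx2-1, Defb4, Wfdc5, Duox1, Xist, Ccdc39, Dnah5, Dnah9, Dynlrb2, Cfap126 and Tmem212. At these depths counting error is small for the 10 genes, each with at least 1256 counts in a library, and counting error alone is covered by depth since duplicate reads are not independent molecules.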

Additional observations from a re-analysis of the deposited data

How the results depend on the processing

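Each log2 fold change was recomputed under 16 alternatives. Bpifa1, Bpifb1, Reg3g, Lyz1, Lyz2, Lcn2, Wfdc2 and Ltf kept their direction in all of them. Where a value passed or lost the threshold the cause was not tested, except that leaving out libraries leaves fewer samples. With an offset for gene length Lcn2 was 0.58 and Wfdc2 0.47, neither called. With library size only Wfdc2 was 0.6, which left 1 of the 10 genes called, against 306 of all 18660 tested genes. With 6 libraries kept separate Lyz1 (0.61), Lyz2 (0.26) and Ltf (-1.11) were also called. That made 5 of the 10 genes in all, against 18.9% of all genes, and Pigr changed sign to 0.03. DESeq2's Wald test called 6, adding Bpifa1 (-1.46), Lyz1 (0.65), Lyz2 (0.27) and Ltf (-1.24), against 3919 of all 18660 tested genes. A term for squamous epithelium transcripts gave 5, adding Bpifa1 (-1.38), Lyz1 (0.59) and Ltf (-1.1), against 2131 of 18660. Leaving out WT3 and KO1 leaves a KO arm of KO2 and KO3, which count as 1 sample, so this fit is no test between mice and its calls, 10 of the 10 genes, support nothing. Its estimates were Bpifa1 at -1.06, Bpifb1 at -0.19, Reg3g at -0.54, Lyz1 at 0.66, Lyz2 at 0.28, Slpi at 0.98, Ltf at -1.04, and Pigr, with its sign changed, at 0.22. Leaving out 1 library at a time gave 0.66 to 0.72 for Lcn2, 0.62 to 0.74 for Wfdc2, -0.79 (without KO1) to 2.81 for Slpi and -0.14 to 0.26 (without KO1) for Pigr, and 0 to 2 of the 10 genes called. Lcn2 and Wfdc2 were not called without WT1, WT2 or WT3, nor without KO1, where the KO arm has 1 sample assumed to vary like WT. Leaving out KO2 or KO3 removes only part of 1 summed sample, so the calls kept there say nothing about stability.

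Over all genes the main comparison called 426. A filter of 10 counts in each library gave 937, and keeping the 6 libraries separate gave 3402. The count was 3919 with DESeq2, 2131 with the squamous epithelium term, 5985 in the fit without WT3 and KO1 and 4 with the length offset, where 0 of the 10 genes were called (4 at an unadjusted p of no more than 0.05). Leaving out 1 library gave 0 to 418. It was 0 by edgeR without any 1 of the WT libraries (3346 to 4193 genes at an unadjusted p of no more than 0.05) and 17 without KO1.

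Samples of the 2 genotypes share replicate numbers, which the labels do not tie to a litter or day. Deviations from the group means had correlations of -0.68, 0.8 and -0.85 for numbers 1, 2 and 3 over 15152 genes, so the samples share only a number, and WT3 correlated best with KO1 (0.87). With the replicate number as a block, on separate libraries, there were 1157 calls, of which the main comparison also made 412, and Lcn2 and Wfdc2 were the 2 called of the 10.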
